A study of Homo sapiens with 10 samples.

Results

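A group of 6 transcription factor genes was examined here by position: RUNX1, GATA3, MYB, ETS1, TCF12 and TCF3, partners in the regulatory circuit of T-cell acute lymphoblastic leukaemia. The account covers every listed region inside 6 windows on hg19, drawn around these genes by position. No measured value set their limits, but genes and windows were chosen with earlier results of these data known. The windows are chr21:36150000-36450000 for RUNX1, chr10:8050000-8150000 for GATA3, chr6:135350000-135550000 for MYB, chr11:128320000-128470000 for ETS1, chr15:57200000-57590000 for TCF12 and chr19:1604000-1658000 for TCF3. Together they span 1.19 Mb and held 147 of the 121294 regions listed on the autosomes and chromosome X. The cells were RPMI-8402, a long-established line from human T-cell leukaemia of the acute lymphoblastic kind, in culture and with no treatment named in the labels. MYC, MYCN, H3K4me3, H3K27ac and H3K4me1 were each mapped by CUT&RUN, in which an antibody tethers a nuclease that cuts out the DNA beside its target. There were 10 libraries in 4 labelled sets, 4 of them control IgG. Lists of 6 libraries were used: MYCN of set A, H3K4me3 of set B, MYC, H3K27ac and H3K4me1 of set C, and MYC of set D. Each list is 1 library, so no spread between cultures was measured and no test was made. The lists hold positions and no read counts, so depth is unknown and a place without a listed region may still have carried signal. Identity of the line was not checked, since the lists hold no expression values.

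RUNX1 encodes the DNA-binding partner of CBFB and is transcribed from a distal and a proximal promoter. GATA3 is a zinc finger factor needed for T-cell commitment. MYB is a proto-oncogene that keeps haematopoietic progenitors dividing. ETS1 is the founding member of the ETS family and is abundant in lymphocytes. TCF12 and TCF3 encode E proteins, helix-loop-helix factors that bind E-box sequences and that pair with TAL1 in leukaemic T cells. In TAL1-positive leukaemia these factors are known to occupy shared enhancers, their own included. H3K4me3 marks active promoters, H3K27ac active promoters and enhancers, and H3K4me1 mostly enhancers and promoter flanks. MYC and MYCN bind the E-box CACGTG together with MAX.

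The reference letters around the gene starts show which of the circuit's own motifs stand there. RefSeq (GRCh38.p14) gave 14 promoters for 5 of the 6 genes, namely 6 for GATA3, 5 for TCF12 and 1 each for RUNX1, MYB and TCF3. ETS1 had no entry. With 1 entry, the distal and the proximal promoter of RUNX1 cannot both have been searched. Each spans 250 bases before the start and 50 after it. This build differs from that of the peaks, so none of these promoters was placed on a peak. Both strands were searched for 6 short motifs. The E-box of MYC with MAX was CACGTG. That of the E proteins and of TAL1 was written as CAGNTG. For GATA factors the letters were AGATAA. For RUNX factors they were TGTGGT. The ETS family was represented by CCGGAA. The MYB motif was AACNG. The 4 promoters shown hold all the matches to either E-box and to the RUNX motif, and, for RUNX1, a match to the ETS motif. Only the 250 bases before the start are printed, on the gene's strand, with matches to the first 5 motifs on either strand in capitals.
GATA3 promoter with CACGTG and TGTGGT, chr10:8050986-8051235, plus strand: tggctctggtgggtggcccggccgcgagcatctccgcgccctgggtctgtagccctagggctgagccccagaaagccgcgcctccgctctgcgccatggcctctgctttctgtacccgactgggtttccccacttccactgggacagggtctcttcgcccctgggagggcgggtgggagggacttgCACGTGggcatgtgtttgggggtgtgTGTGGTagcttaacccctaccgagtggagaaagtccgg
TCF12 promoter with CACGTG, chr15:56917840-56918089, plus strand: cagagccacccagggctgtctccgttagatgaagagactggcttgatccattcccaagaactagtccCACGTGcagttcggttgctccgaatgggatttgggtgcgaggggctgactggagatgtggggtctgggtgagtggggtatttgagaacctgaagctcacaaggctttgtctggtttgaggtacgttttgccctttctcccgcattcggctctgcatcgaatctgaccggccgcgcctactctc
GATA3 promoter with CAGNTG and CCGGAA, chr10:8054438-8054687, plus strand: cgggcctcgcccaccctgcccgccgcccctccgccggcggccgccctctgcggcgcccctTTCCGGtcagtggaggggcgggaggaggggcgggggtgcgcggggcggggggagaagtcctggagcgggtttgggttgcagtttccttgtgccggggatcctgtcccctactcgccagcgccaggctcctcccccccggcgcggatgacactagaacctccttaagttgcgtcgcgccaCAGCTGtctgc
RUNX1 promoter with CCGGAA, chr21:34888700-34888949, minus strand: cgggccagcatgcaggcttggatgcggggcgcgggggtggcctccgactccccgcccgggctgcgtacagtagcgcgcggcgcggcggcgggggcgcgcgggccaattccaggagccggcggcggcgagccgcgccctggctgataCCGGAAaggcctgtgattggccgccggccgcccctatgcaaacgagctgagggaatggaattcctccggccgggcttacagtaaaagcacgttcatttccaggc

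CACGTG stood in 2 of the 14 promoters, at 7.26% of all 35116 promoters in the table. In GATA3 it began 64 bases before the start, followed by TGTGGT at 38 bases before it. In TCF12 it began 183 bases before the start. CAGNTG, which 49.9% of all promoters hold, stood in 1 of the 14, a GATA3 promoter, 11 bases before the start. TGTGGT stood in 1 (13.1% of all), and CCGGAA in 3 (17.2% of all), of which 2 belong to GATA3 and 1 to RUNX1. AGATAA stood in 0 of the 14 (10.3% of all), and AACNG in 8 (77.2% of all). The MYB promoter held AACNG and none of the other motifs, and that of TCF3 held none of the 6. No 2 of these motifs overlapped in the printed letters. Such a match describes the letters only. The 6 promoters of GATA3 and the 5 of TCF12 were counted singly.

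The windows of the circuit genes each held all 3 histone marks and MYC, while MYCN was not listed in any of them. H3K27ac and H3K4me1 had 47 regions each in the windows, H3K4me3 had 17, MYC had 17 in set C and 19 in set D, and MYCN had 0. Regions spread evenly over the 2950 Mb spanned by the lists would put 16.0 regions of H3K27ac, 16.0 of H3K4me1, 5.61 of H3K4me3, 3.84 and 7.29 of MYC of sets C and D, and 0.362 of MYCN in these windows. How each list is spread over genes was not analysed here, so an even spread is only a yardstick. For MYCN, with 895 peaks in all, a length of this size would on average hold fewer than 1 peak. Of the 17 H3K4me3 regions 0 held MYCN, which allows a share of up to 17.6%, and over all H3K4me3 regions the share was 5.10%. A lower share of MYCN in these windows was therefore not detectable with this list.

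**Figure D1:**
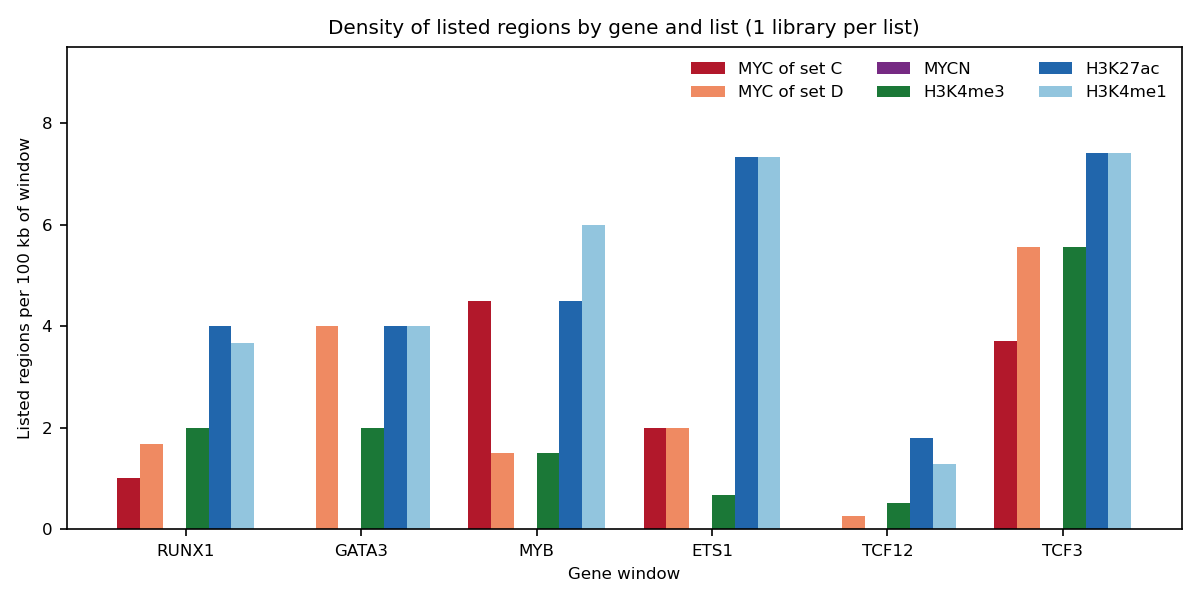
Listed regions per 100 kb of window (vertical axis) for each gene (horizontal axis) and each list (colour), 1 library per list. TCF12, the longest window, has the lowest density in every list with regions in all 6 windows, and MYCN has no bar at any gene.

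Density differed widely between the genes. TCF3 had 7.41 regions per 100 kb of H3K27ac and of H3K4me1, ETS1 7.33 of each, MYB 4.50 and 6, GATA3 4.00 of each, RUNX1 4.00 and 3.67, and TCF12 1.79 and 1.28. H3K4me3 covered 6.95% of the TCF3 window, 5.15% of the GATA3 window, 4.71% of the RUNX1 window, 3.54% of the MYB window, 2.75% of the ETS1 window and 0.671% of the TCF12 window. How far these values depend on how tightly each window was drawn around its gene was not tested. The TCF3 window is 54 kb long around a gene of 43 kb, whereas the GATA3 window is 100 kb long around a gene of 30 kb (gene lengths from RefSeq). The TCF12 window, with the lowest density, is 390 kb long around a gene of 373 kb. That of MYB is 200 kb long around a gene of 38 kb.

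**Figure D2:**
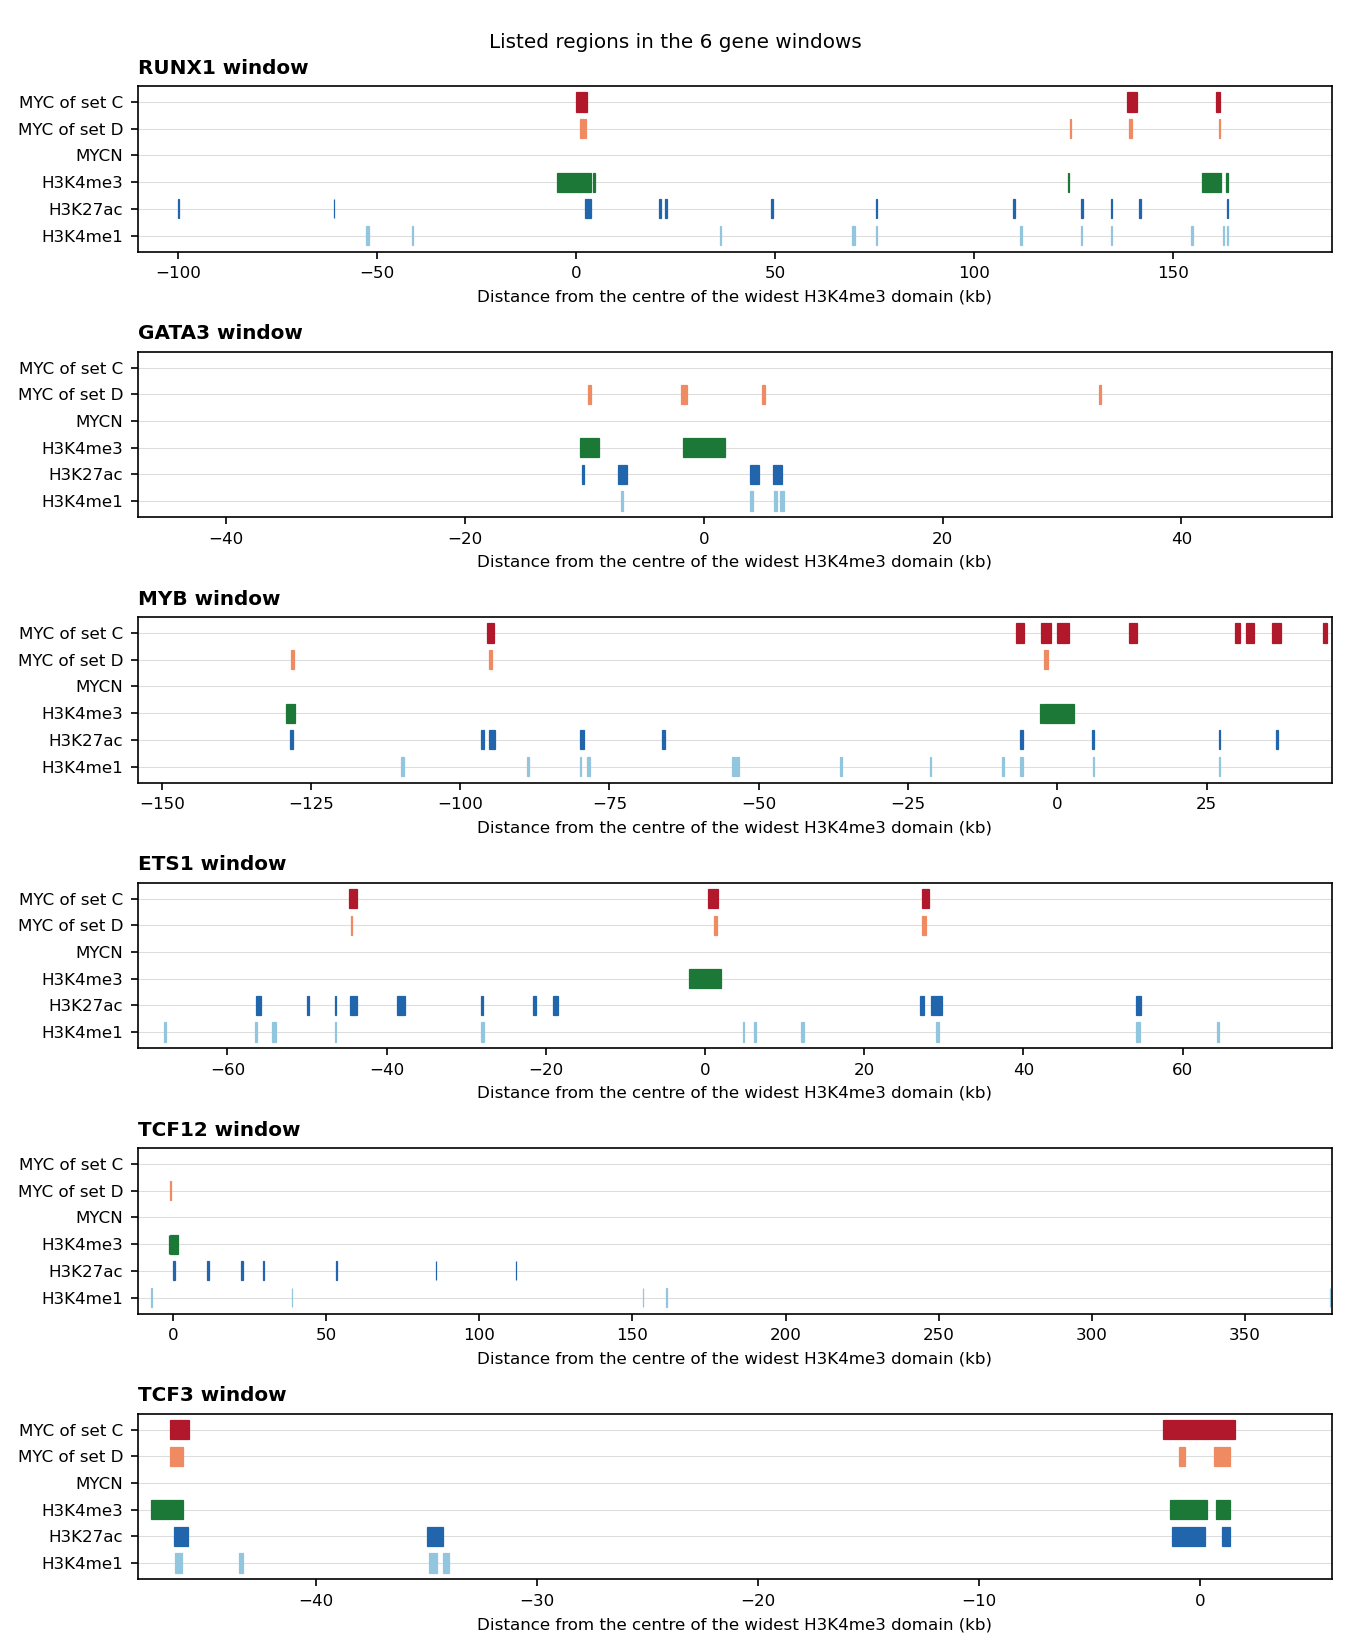
Map of every listed region in the 6 windows, one panel per gene and one row per list, drawn to scale against the distance in kb from the centre of the widest H3K4me3 domain. RUNX1 has 2 wide H3K4me3 blocks, ETS1 has 1 block with H3K27ac only at a distance, and MYB has a run of set C MYC regions to the right of its block.

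The widest H3K4me3 domain of each gene was above the median width of all domains. H3K4me3 regions were joined where the gap was at most 1 kb, which gave 11978 domains over all chromosomes with a median width of 1571 bp, of which 12 lay in the windows. The widest domain was 9377 bp at RUNX1, 5734 bp at MYB, 4122 bp at ETS1, 3575 bp at GATA3, 2907 bp at TCF12 and 2730 bp at TCF3. Ranked by width among all domains these were numbers 4, 62, 299, 564, 1246 and 1561. All 6 were therefore wider than at least 86.9% of the domains of this list. Each is the widest of its window, picked from more than 1 domain at RUNX1, GATA3, MYB and TCF3, whereas the ranks are over single domains. No comparable share for other gene windows was computed. At TCF3 this rests on joining 2 regions, since the larger of them alone was 1652 bp, wider than 63.3% of the H3K4me3 regions as listed.

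At RUNX1 the 2 widest domains lay 159.8 kb apart, centre to centre. The widest, chr21:36255344-36264720, was made of 3 H3K4me3 regions, the largest of them 7644 bp. A set C MYC region of 2716 bp, wider than 97.4% of that list, lay inside it at chr21:36259983-36262698. Set D placed peaks of 1031 bp and 299 bp in the same stretch, and the larger of them was wider than 95.9% of its list. H3K27ac covered 1412 bp at the high-coordinate end of this domain, which is the upstream side, since RefSeq places RUNX1 on the minus strand. The other domain, chr21:36417396-36422233, was 4838 bp wide (rank 154) and held MYC in both lists, 991 bp in set C and 240 bp in set D. No H3K27ac region overlapped it, and the nearest lay 1470 bp away. RUNX1 thus had 2 wide H3K4me3 domains with MYC in both lists, and of these only the wider overlapped H3K27ac. Smaller domains of 501 bp and 253 bp held no MYC, although a set D peak stood 61 bp from the narrower of them.

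At MYB the widest domain was chr6:135501115-135506848. Set C listed MYC regions of 1793 bp and 1894 bp in it, covering 3687 bp, and set D listed 1 peak of 709 bp within the first of these. H3K27ac flanked the domain on both sides without touching it, at 2937 bp on one side and 3003 bp on the other, and each flanking region overlapped H3K4me1. A 1511 bp domain at the far end of the window, chr6:135374825-135376335, overlapped H3K27ac and a 452 bp set D peak and no set C region. HBS1L precedes MYB among protein-coding genes in RefSeq, and that domain was not assigned to either gene here.

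At ETS1 a single domain, chr11:128389179-128393300, was the only H3K4me3 region of the window. It held MYC in both lists, 1259 bp in set C and 482 bp in set D. The nearest H3K27ac region lay 16358 bp away and the nearest H3K4me1 region 2673 bp away, the longest such distance to H3K27ac among the 6 widest domains. At GATA3 the widest domain, chr10:8095606-8099180, held a set D peak of 579 bp across its low-coordinate edge and no set C region. H3K27ac lay 2041 bp beyond its other edge. A 1579 bp domain at chr10:8087028-8088606 overlapped 216 bp of H3K27ac and a 201 bp set D peak.

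The E protein genes had the narrowest of these domains, both with H3K27ac inside. At TCF12 the domain chr15:57210059-57212965 overlapped 815 bp of H3K27ac and a 257 bp set D peak, with no set C region. At TCF3 the domain chr19:1650677-1653406 lay wholly inside a set C MYC region of 3245 bp, wider than 98.7% of that list. Set D listed peaks of 270 bp and 697 bp there, and H3K27ac covered 1832 bp of the domain. The other TCF3 domain, chr19:1604607-1606043, was the one place in the windows where both MYC lists and all 3 marks met. It lies at the low-coordinate end of the window, on the side of UQCR11, the coding gene before TCF3 in RefSeq, and was not assigned to either. H3K27ac inside the domain was not particular to the E protein genes. The widest RUNX1 domain had it too, as did 86.9% of all domains of 2 to 3 kb. TCF3 and TCF12 differed in MYC, which set C listed at TCF3 and not at TCF12.

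**Figure D3:**
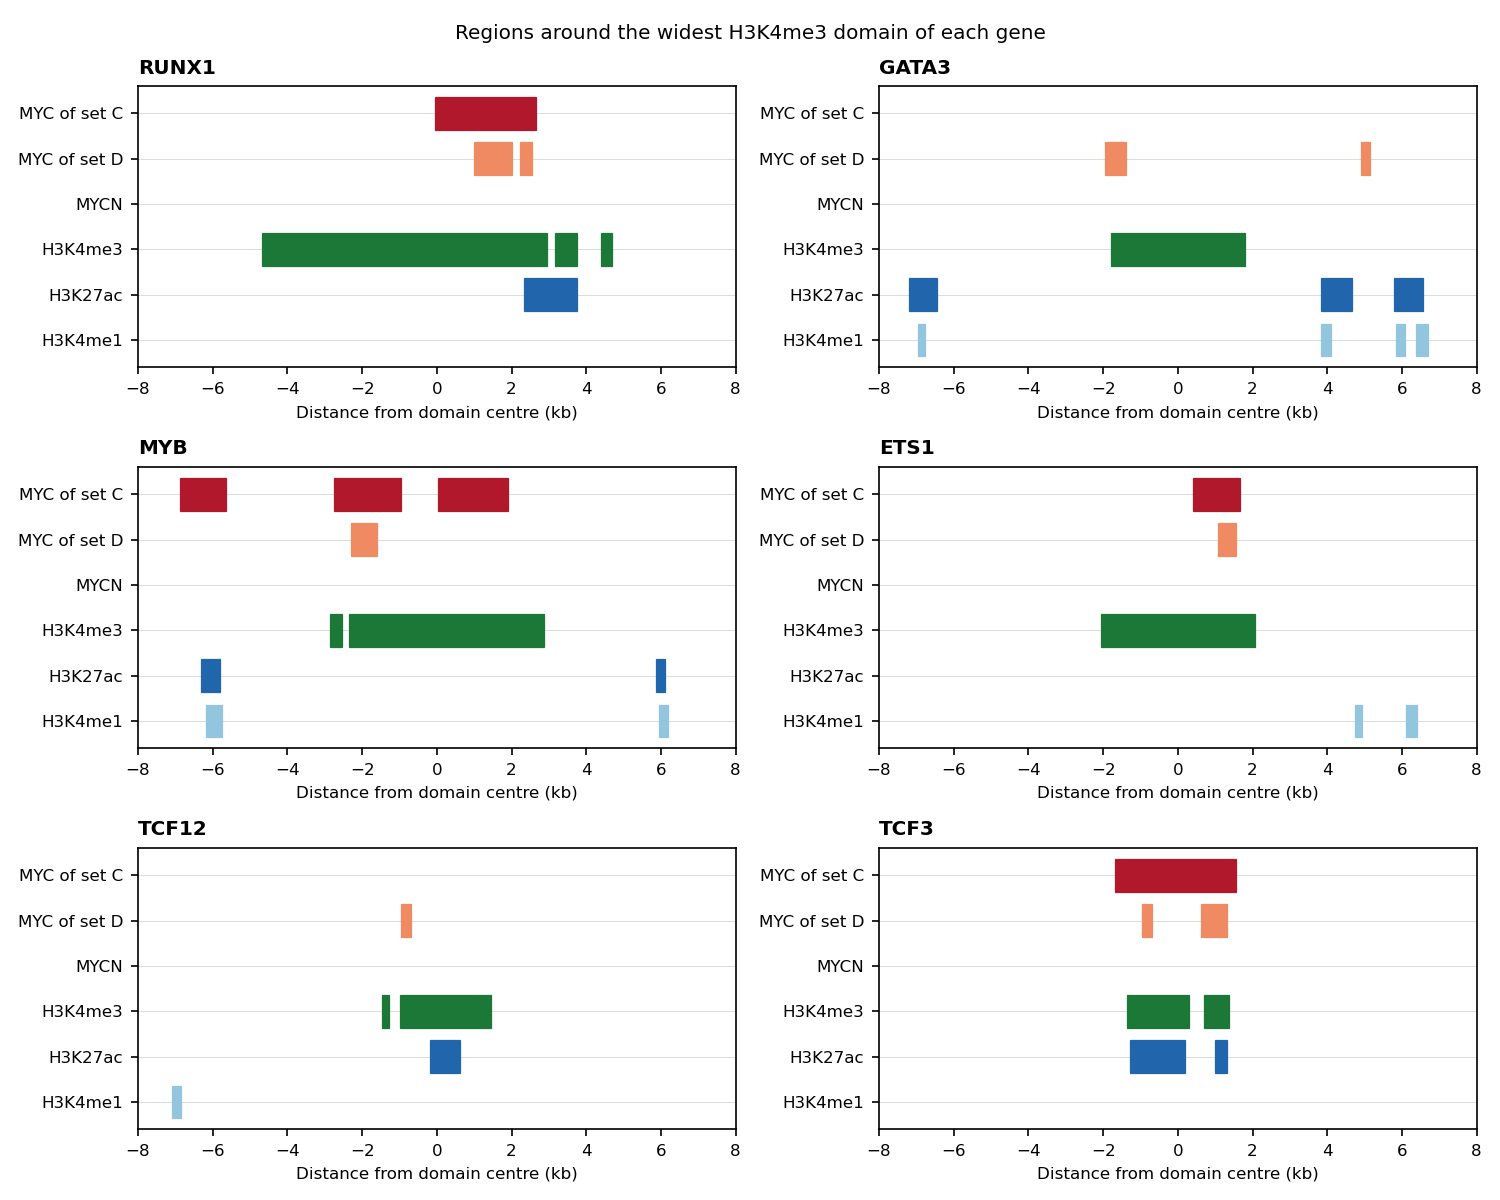
Regions within 8 kb of the centre of the widest H3K4me3 domain of each gene (horizontal axis, kb), with one row per list. H3K27ac lies inside the domain at RUNX1, TCF12 and TCF3, beside it at GATA3 and MYB, and outside the plotted range at ETS1.

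H3K27ac was thus listed in only part of these domains. Of the 17 H3K4me3 regions, 9 overlapped H3K27ac (52.9%, exact 95% binomial interval 27.8 to 77.0%), and over all H3K4me3 regions the share was 66.2%. After joining, 7 of the 12 domains did so (58.3%, 27.7 to 84.8%), against 73.3% of all domains. Of the 7 domains of 2730 bp or more, 3 overlapped H3K27ac (42.9%, 9.90 to 81.6%), against 88.4% of the 1565 domains at least that wide. That width is the narrowest of the 6 widest domains, so it was set from the members. Wider domains overlapped H3K27ac in most cases over the whole list, from 86.9% of those of 2 to 3 kb to 89.7% at 3 to 4 kb, 86.8% at 4 to 6 kb and 86.3% at 6 kb or more. The 4 without it were the widest domains of MYB, ETS1 and GATA3 and the 4838 bp domain of RUNX1. H3K27ac and H3K4me3 came from different sets, C and B, and from lists of different form, whose part in this was not tested. These intervals cover counting error over listed regions only, and regions of 1 gene are not independent.

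**Figure D4:**
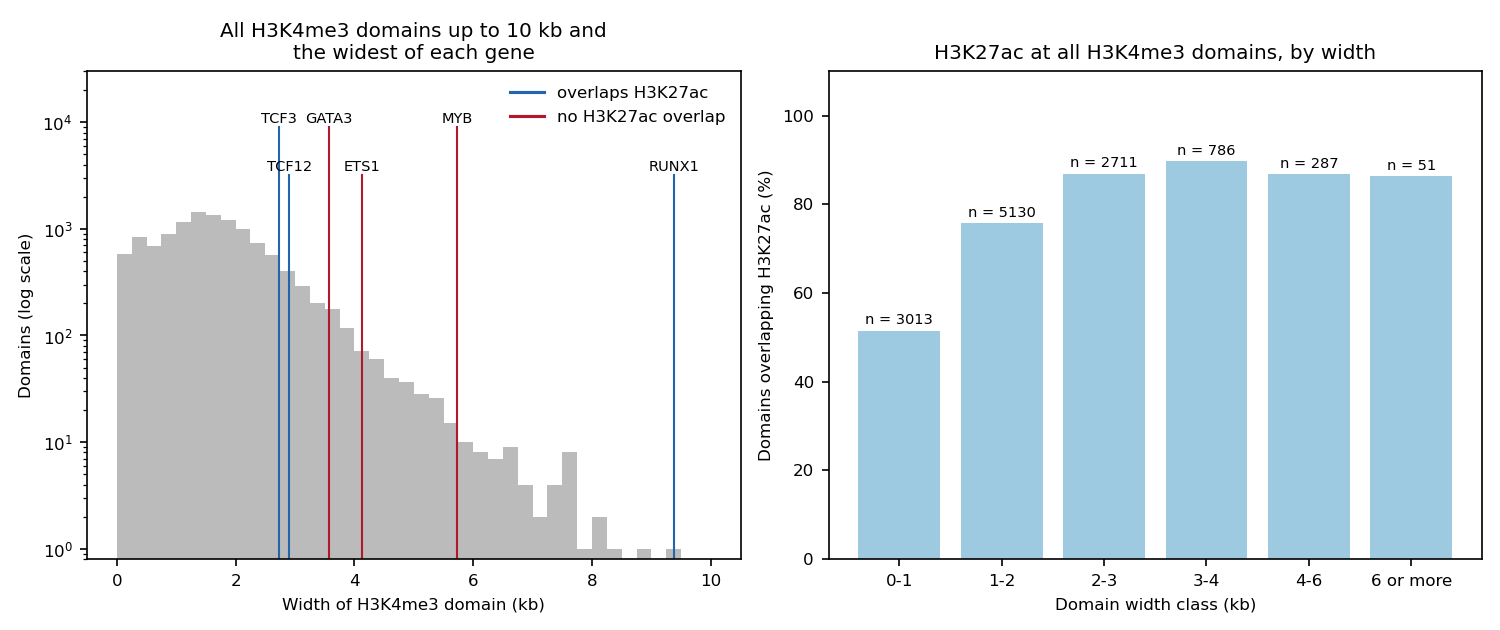
Left, number of H3K4me3 domains by width up to 10 kb (log vertical axis), with a line at the widest domain of each gene, blue where it overlaps H3K27ac and red where it does not. Right, percent of all domains that overlap H3K27ac in each width class, between 51.5% below 1 kb and 89.7% at 3 to 4 kb.

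MYC lay at most H3K4me3 regions of the windows, as it did over the whole H3K4me3 list. MYC of at least 1 list overlapped 12 of the 17 H3K4me3 regions (70.6%, 44.0 to 89.7%), against 76.7% of all H3K4me3 regions. Both lists did so at 7 (41.2%, against 43.4% of all), set C at 8 (47.1%, against 47.9%) and set D at 11 (64.7%, against 72.3%). All 7 domains of 2730 bp or more held MYC of at least 1 list, where the share among all domains of that width was 95.1%. Of the 12 domains of any width 10 held MYC (83.3%, against 82.9% of all). The 2 without it were the smaller RUNX1 domains. All these shares were near the background.

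Joined across the 2 lists, MYC had 24 sites in the windows, of which 10 were in both lists, 7 in set C alone and 7 in set D alone. Over the genome 40.4% of such sites were in both lists, beside 41.7% (22.1 to 63.4%) here. Taken by list, 10 of the 17 set C regions met set D (58.8%, against 82.5% of the whole list) and 12 of the 19 set D peaks met set C (63.2%, against 45.1%). The labels give 2 MYC libraries, but the headers of both lists point to the same signal track, and the lists came from different callers. Whether a site in both is an independent replicate cannot be told. The genes differed in which list held their sites. ETS1 had 3 sites and TCF3 had 2, all in both lists. RUNX1 had 4, of which 3 were in both. GATA3 with 4 and TCF12 with 1 had sites in set D alone. MYB had 10, with 7 in set C alone, 2 in both and 1 in set D alone. The GATA3 sites of set D were 579, 241, 201 and 190 bp wide, and that of TCF12 was 257 bp, beside a median of 422 bp over the whole set D list.

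**Figure D5:**
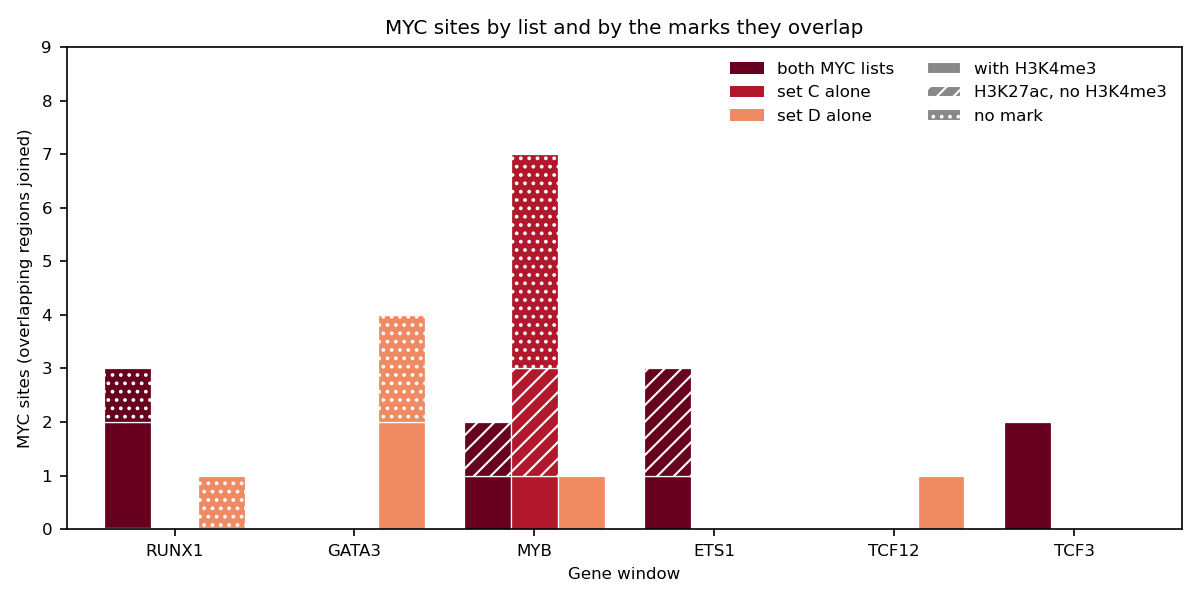
Number of MYC sites (vertical axis, overlapping regions of the 2 MYC lists joined) per gene, with colour for the list and hatching for the marks met. MYB has 7 sites of set C alone, 4 of them with no mark, while all sites of ETS1 and TCF3 are in both lists.

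Set C listed a run of MYC regions along and beyond the MYB domain that set D did not. They were chr6:135497100-135498342, which met H3K27ac and H3K4me1, chr6:135504004-135505897, inside the H3K4me3 domain, and 5 further regions between 135516027 and 135549169. Of these 5 only chr6:135539883-135541490 met a mark, H3K27ac. The other 4 met none, lying between 2449 and 7473 bp from the nearest H3K27ac. The widths of the 7 ran from 741 to 1894 bp. The MYB window alone held 9 of the 17 set C regions of all the windows. Without it, set C would have had 8 regions at the other genes, all of them also in set D.

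Sites without any mark made up 8 of the 24 (33.3%, 15.6 to 55.3%), beside 11.6% of all MYC sites. They were the 4 of set C alone at MYB, 2 of set D alone at GATA3, 1 of set D alone at RUNX1, and 1 in both lists at RUNX1. That last site, chr21:36398496-36401026, was 2531 bp in set C and 719 bp in set D, wider than 96.7% and 83.3% of their lists. It lay 390 bp from an H3K27ac region of 557 bp and 14481 bp from the nearest H3K4me3. The other 7 were in 1 list only. Taken by list, 5 of 17 set C regions had no mark (29.4%, 10.3 to 56.0%, against 8.10% of that list), and 4 of 19 set D peaks (21.1%, 6.05 to 45.6%, against 10.5%). Without the MYB window, 1 of 8 set C regions had no mark. H3K4me3 was met by 11 of the 24 sites (45.8%, against 53.6% of all). Taken by list, it was met by 7 of 17 regions of set C (41.2%, 18.4 to 67.1%, against 65.9% of the whole list) and by 12 of 19 of set D (63.2%, 38.4 to 83.7%, against 56.0%). H3K27ac was met by 8 of 17 in set C (47.1%, with an upper bound of 72.2%, against 78.2%) and by 8 of 19 in set D (42.1%, 20.3 to 66.5%, against 70.7%). H3K4me1 was met by 2 of 17 in set C (11.8%, 1.46 to 36.4%, against 26.6%) and by 1 of 19 in set D (5.26%, 0.133 to 26.0%, against 28.2%). The share with H3K27ac was thus lower in these windows than over the whole list for both MYC lists, with no test made. It was uneven between the genes and not a trait of each, since at TCF3 every region of both MYC lists met H3K27ac. The regions without H3K27ac included the 4 unmarked set C regions at MYB and every set D peak at GATA3. Regions of 1 gene are not independent, and neither are the 2 lists, whose headers point to the same signal track. For H3K4me3 in both lists and for H3K4me1 in set C, the interval held the share of the whole list. So did that for set D peaks with no mark. A difference was not detectable in any of these, and the H3K4me1 share of set D rests on 1 peak.

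MYC away from H3K4me3 but with H3K27ac was found at 5 of the 24 sites (20.8%, 7.13 to 42.2%), against 30.3% of all MYC sites, a share inside that interval. At ETS1 there were 2, both in both lists: chr11:128346511-128347464 and chr11:128418433-128419319, on either side of the H3K4me3 domain at 41714 and 25132 bp from it. At MYB the site chr6:135408485-135409557 was in both lists, with a 970 bp H3K27ac region, 1073 bp of MYC in set C and 621 bp in set D. It lay 32149 bp from the nearest H3K4me3. The remaining 2 were the set C sites at MYB named above. The 3 in both lists met no H3K4me1, which holds for 46.2% of all such sites in both lists.

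Enhancer-like regions, meaning H3K4me1 with H3K27ac and without H3K4me3, numbered 18 of the 47 H3K4me1 regions (38.3%, 24.5 to 53.6%), against 47.0% of the whole list. ETS1 had 5 of them, GATA3 4, MYB 4, RUNX1 3, TCF3 2 and TCF12 0. At GATA3 all 4 H3K4me1 regions were of this kind, and they lay between 1.8 and 4.6 kb from the nearest H3K4me3 region. At RUNX1 the 3 lay 3.0, 10.4 and 48.1 kb from the nearest H3K4me3. That distance ran from 2.9 to 47.7 kb at MYB and from 25.7 to 54.2 kb at ETS1, and at TCF3 it was 11.1 and 11.7 kb. MYC overlapped 1 of the 18 (5.56%, 0.141 to 27.3%), against 20.4% of all enhancer-like regions. It was chr6:135497809-135498232 at MYB, in set C alone. MYC stood close to several others without sharing a base, at 708, 809 and 1232 bp at GATA3 and at 964 and 1601 bp at ETS1. Those distances at GATA3 all run to the same 241 bp set D peak. The rest lay between 2425 and 48399 bp from MYC, and such distances were not computed over the whole list. MYCN overlapped 0 of the 18, which allows a share of up to 16.7%, and 0.339% of all. Seen from the side of acetylation, 18 of the 47 H3K27ac regions met H3K4me1 (38.3%, against 45.3% of the whole list), 8 met H3K4me3 (17.0%, 7.65 to 30.8%, against 23.2%) and 10 met MYC of at least 1 list (21.3%, 10.7 to 35.7%, against 34.6%). At TCF12, 0 of the 7 H3K27ac regions met H3K4me1.

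Joined across the longer gap given with the processing, H3K27ac regions formed 25742 clusters over all chromosomes, counting lone regions. The longest at ETS1 was chr11:128334816-128372820, 38005 bp with 8 H3K27ac and 4 H3K4me1 regions, rank 278 by length. It held the first of the ETS1 sites named above and no H3K4me3. TCF12 had one of 29787 bp with 4 H3K27ac regions (rank 576), which began inside its H3K4me3 domain and held no H3K4me1 and no MYC. At GATA3 a cluster of 16792 bp (rank 1845) took in all 4 H3K27ac regions of the window, both H3K4me3 domains and 3 set D peaks. RUNX1 reached 14927 bp (rank 2136) at chr21:36387047-36401973, around the unmarked MYC site described above, with 2 H3K4me1 regions. MYB reached 12422 bp (rank 3008), which spanned its widest domain, and TCF3 12164 bp (rank 3129). None of the 6 was among the 10 longest of the list, and these lengths depend on the joining distance.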

How the data were processed

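Peak positions in bases on hg19 were used as deposited, a start and an end per region with no score (hg19, MACS2 and SEACR per the submitters' processing notes, versions not given). Per the file headers, the MYCN list is cutruntools output, H3K4me3 is from MACS2, SEACR (stringent, paired reads) made the set C list of MYC, and MACS2 (reads not paired) that of set D. No header stands in the lists of H3K27ac and H3K4me1. The label of the set D MYC library names itself as control. Regions on chromosomes 1 to 22 and X were kept, and those touching a window by 1 bp or more were taken, as were overlaps of 1 bp or more. Intervals are exact Clopper-Pearson 95% intervals. A count of 0 was given the limit of 3 counts in place of the exact upper bound. That bound is 19.5% for MYCN at the 17 H3K4me3 regions and 18.5% at the 18 enhancer-like regions. H3K4me3 was joined within 1 kb and H3K27ac within 12.5 kb.

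The text names every H3K4me3 domain, the widest MYC regions, sites in both MYC lists with H3K27ac, and the longest H3K27ac cluster of each gene. Members, windows and lists were chosen with earlier results of these data known. No hg19 annotation of genes entered, so regions were not placed in exons or introns, and other circuit genes were not examined. Overlaps were tested on simulated data, where the code recovered 400 of 400 planted overlaps, and it matched bedtools 2.31.1 on all 30 ordered pairs of lists. Alternatives were the overlap rule, wider regions only, either MYC list alone, the joining distances and the promoter window. Software was Python 3.11.15 with scipy 1.17.1, numpy 2.4.6 and matplotlib 3.10.9.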

Additional observations from a re-analysis of the deposited data

How the results depend on the processing

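Counting regions in a window by their centre left all 6 counts as they were, and promoter motif counts did not move when only bases before the start were searched. Keeping regions at or above the median width of their list gave 10 MYC regions in set C, 10 in set D, 10 of H3K4me3, 19 of H3K27ac and 18 of H3K4me1, with 7 H3K4me3 regions holding MYC and 11 MYC regions in H3K4me3. With the centre of an H3K4me3 region required inside MYC, 5 held it in place of 12. With 1 MYC list left out, H3K4me3 regions with MYC numbered 8 to 11, MYC regions in H3K4me3 7 to 12 in place of 19 over both lists, and enhancer-like regions with MYC 0 to 1. The 1 such region rests on MYC of set C, and without that list there was none. Without joining, the widest H3K4me3 region was 7644 bp at RUNX1, 5225 at MYB, 2435 at TCF12 and 1652 at TCF3, with no change at ETS1 and GATA3, and joining within 2 kb changed none of the 6. H3K27ac clusters moved most. Joined within 5 kb the longest was 2127 bp at RUNX1, 3784 at GATA3, 2287 at MYB, 6203 at ETS1, 815 at TCF12 and 2615 at TCF3. Joined within 20 kb it was 32216 bp at RUNX1, 138376 at MYB and 25625 at TCF3. What lay behind these changes was not tested. No paired analysis was possible because no result comes from a test. The set letters do tie libraries together (an IgG library in each set, and in set C both H3K27ac and H3K4me1 beside MYC), but each target has 1 list per set, without read counts. Depth limits every statement on a missing region, since the lists hold no read counts.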
